A study of Mus musculus with 4 samples.

Results

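Small nucleolar RNA (snoRNA) host genes were followed in MDSCs exposed to EGCG. The 9 genes were Gas5, Snhg1, Snhg3, Snhg5, Snhg6, Snhg8, Snhg12, Snhg15 and Snhg16, chosen by name among the 53465 genes of the count table. A name match found 8 of them. Snhg16 was found through its RefSeq synonym, 1810032O08Rik, whose annotated position is the same. Enough reads were counted on 8 of the 9 for a test, among 14682 tested genes in all, and Snhg3 was not tested.

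MDSCs are a mixed class of immature myeloid cells, expanded in cancer, that restrain T cells, and EGCG is the main catechin of green tea. Male BALB/c mice, 6 weeks old, carried tumors of 4T1, a mammary carcinoma line of that strain, and Gr-1 positive cells were taken from their spleens with magnetic beads. Both groups came from tumor-bearing mice. The control group was kept in control medium and the EGCG group in medium with 5 μg/mL EGCG, each for 6 h, with 2 libraries per group. The labels place the sacrifice on day 21, whereas the methods place it 2 weeks after injection. Gr-1 is shared by Ly-6G and Ly-6C, so the sorted cells mix granulocytic and monocytic cells. The labels do not state whether the 2 libraries in a group stem from separate mice or wells, so p values measure only the spread between these libraries. In bulk RNA, fewer cells of a type and less RNA per cell cannot be told apart.

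The genes carry snoRNAs in their introns. After splicing, the excised intron is trimmed to the snoRNA, which guides 2′-O-methylation (box C/D class) or pseudouridylation (box H/ACA class) of ribosomal RNA or other RNAs, while the spliced host RNA often encodes no conserved protein. Many host transcripts start with a run of pyrimidines, as mRNAs of ribosomal proteins do, and several are degraded by nonsense-mediated decay when they are translated. Gas5, named for its accumulation in growth-arrested cells, also encodes an RNA that can bind the DNA-binding domain of the glucocorticoid receptor.

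The annotation (GENCODE M21, GRCm38) places 33 snoRNA gene models at 31 loci inside the 9 hosts. Gas5 (chr1:161034422-161038539, plus strand) holds 9 loci and Snhg1 (chr19:8723475-8726443, plus strand) holds 8. Snhg12 (chr4:132308623-132311024, plus strand) holds 4, and Snhg16 (chr11:116671660-116675799, plus strand) holds 3, namely Snord1a, Snord1b and Snord1c. The remaining hosts lie on the minus strand. Snhg3 (chr4:132348014-132353686) holds Snora73a and Snora73b, and Snhg5 (chr9:88521050-88522929) holds Snord50a and Snord50b. A single snoRNA lies in each of Snhg6 (chr1:9941959-9944118, Snord87), Snhg8 (chr3:123507552-123508404, Snora24) and Snhg15 (chr11:6525591-6528760, Snora9). The exonic sequence of the hosts, joined over all transcripts, runs from 853 bases in Snhg8 to 3760 bases in Gas5.

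**Figure D1:**
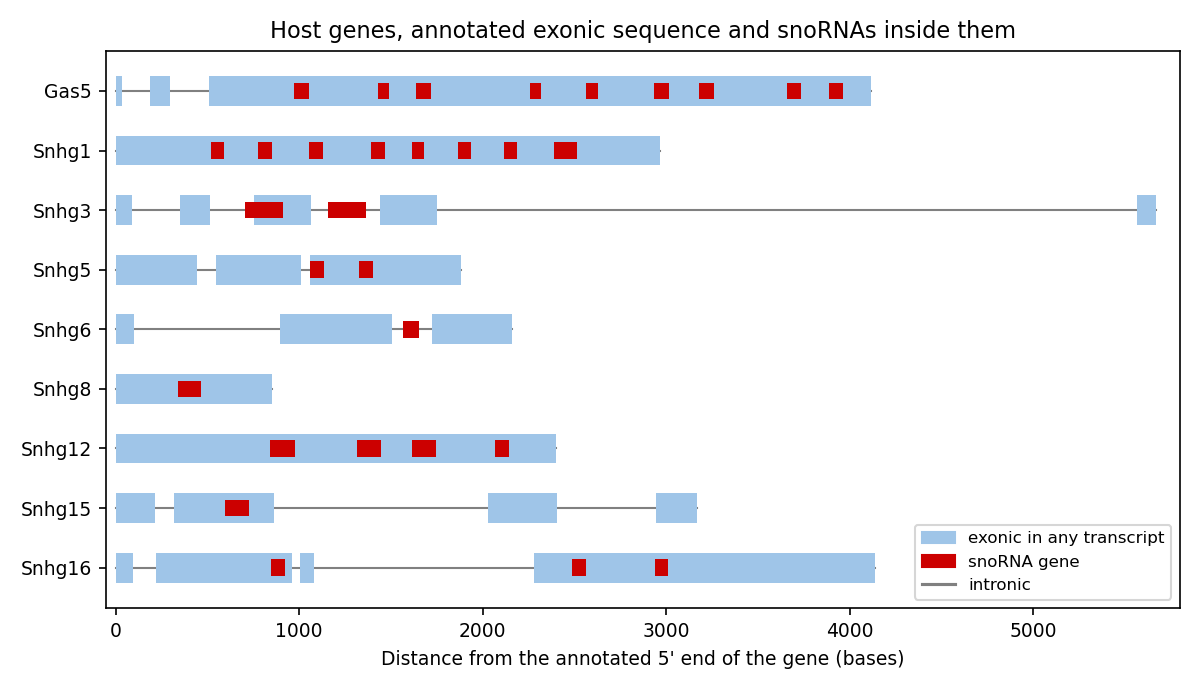
Map of the 9 host genes drawn from the annotated 5′ end (horizontal axis, bases), with exonic sequence of any transcript in blue, snoRNA genes in red and intronic sequence as a line. Most snoRNAs lie over blue, and 2 of the 33 models, Snora73b in Snhg3 and Snord87 in Snhg6, lie outside annotated exons.

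The sequence classes of the hosted snoRNAs divide the hosts. Of the 33 models, 18 hold a C box (TGATGA) followed by a D box (CTGA), with lengths of 60 to 87 bases, and 7 hold an ACA exactly 3 bases before the 3′ end, with lengths of 130 to 205 bases. The other 8 hold neither in these exact letters, which says nothing of their class. All snoRNAs of Snhg5 and Snhg6 fall in the first class, and those of Snhg3, Snhg8 and Snhg15 in the second, while Snhg12 holds 3 models of the second and 1 of the first. An example is shown for each host whose snoRNAs all fall in 1 of these classes, with both near-identical copies for Snhg5, taken from GENCODE transcripts of GRCm38 and read 5′ to 3′ on the minus strand. Capitals mark the C and D boxes or the ACA.
Snord50a: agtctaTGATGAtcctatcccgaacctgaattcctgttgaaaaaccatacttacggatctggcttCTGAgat
Snord50b: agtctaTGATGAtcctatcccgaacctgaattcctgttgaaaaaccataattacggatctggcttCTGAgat
Snord87: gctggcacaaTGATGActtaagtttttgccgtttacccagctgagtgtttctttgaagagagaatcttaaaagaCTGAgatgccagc
Snora24: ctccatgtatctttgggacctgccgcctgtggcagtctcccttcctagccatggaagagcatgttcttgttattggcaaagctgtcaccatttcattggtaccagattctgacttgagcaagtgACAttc
Snora9: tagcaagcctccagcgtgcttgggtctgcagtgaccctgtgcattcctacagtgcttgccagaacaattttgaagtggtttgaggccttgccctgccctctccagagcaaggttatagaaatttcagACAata
Snora73a: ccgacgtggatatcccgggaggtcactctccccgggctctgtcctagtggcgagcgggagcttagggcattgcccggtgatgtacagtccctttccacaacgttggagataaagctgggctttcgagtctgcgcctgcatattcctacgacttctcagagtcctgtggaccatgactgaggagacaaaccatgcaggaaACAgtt
Snord50a lies at chr9:88521529-88521600 and Snord50b at chr9:88521797-88521868. Snord87 lies at chr1:9942463-9942549, Snora24 at chr3:123507937-123508066, Snora9 at chr11:6528033-6528165 and Snora73a at chr4:132352775-132352979.

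The starts of the hosts were read from RefSeq (GRCm38.p6), whose promoter table covers 8 of the 9 genes in 9 windows, since Gas5 has 2 listed starts. Snhg6 has no entry. A run of at least 5 pyrimidines beginning with C (C followed by 4 or more of C or T), within 10 bases of the start and on the gene's strand, occurs in 6 of the 9 windows. The same run occurs in 30.7% of all 32851 promoters of the table. The windows with a run are shown from 20 bases before the start to 40 bases from it on. Capitals mark the run. It begins at the listed start in Snhg8 and before it in Gas5 (1 base) and Snhg12 (2 bases), but 2, 8 and 9 bases after it in Snhg3, Snhg16 and Snhg5.
Gas5 (second start): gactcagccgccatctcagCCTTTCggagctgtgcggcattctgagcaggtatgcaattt
Snhg3: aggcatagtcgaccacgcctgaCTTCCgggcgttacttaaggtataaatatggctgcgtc
Snhg5: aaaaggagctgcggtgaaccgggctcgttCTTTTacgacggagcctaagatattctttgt
Snhg8: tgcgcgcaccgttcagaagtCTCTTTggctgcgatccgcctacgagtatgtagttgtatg
Snhg12: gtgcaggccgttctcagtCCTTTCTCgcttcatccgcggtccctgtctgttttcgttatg
Snhg16: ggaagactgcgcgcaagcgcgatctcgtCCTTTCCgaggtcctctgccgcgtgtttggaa
The windows lie at chr1:161035146-161035205 for Gas5, chr4:132353647-132353706 for Snhg3, chr9:88522858-88522917 for Snhg5, chr3:123508297-123508356 for Snhg8, chr4:132308658-132308717 for Snhg12 and chr11:116671640-116671699 for Snhg16. The windows of Snhg1, Snhg15 and the first start of Gas5 hold no such run in these letters. A match is a description of the sequence and was not tested for a role in transcription or translation.

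The libraries were of like depth, with 17767318 and 17973695 counts in the controls and 18390385 and 18091684 with EGCG. The 9 hosts together took from 0.00826% to 0.00885% of the counts. Libraries of a group differed beyond counting noise, with a mean chi-square per gene of 6.79 between the controls and of 6.56 between the EGCG libraries. Between control replicate 2 and each EGCG library it was 7.50 and 6.62, much as between the controls, and between control replicate 1 and each of them 15.9 and 12.3. Granulocytic markers, led by S100a8 and S100a9, were high in every library, with a summed level of 55635 and 67048 CPM (counts scaled to library size by the TMM method) in the controls and 75782 and 66458 CPM with EGCG over 9 of 9 genes detected. Monocytic markers (5 of 5 detected) summed to 1389 and 1184 CPM in the controls and 1060 and 1104 CPM with EGCG. Of these, Fn1 was at 490 and 304 CPM against 218 and 263 CPM, and Csf1r at 632 and 598 CPM against 536 and 578 CPM. Ly6c2, at 120 and 147 CPM against 158 and 132 CPM, was the 1 gene of the 5 with a positive log2 fold change, and 4 were negative.

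Levels are first compared between genes per kilobase of exonic length (RPKM), which keeps a long gene from appearing high for its length alone. Snhg8 was the highest of the hosts and Snhg3 the lowest. The mean over the 4 libraries was 13.4 RPKM for Snhg8, 8.43 for Snhg5, 7.25 for Gas5, 4.84 for Snhg6, 4.31 for Snhg1, 3.02 for Snhg15, 2.26 for Snhg12, 1.38 for Snhg16 and 0.126 for Snhg3. The ranges over libraries overlapped between Snhg5 and Gas5, between Snhg6 and Snhg1, and between Snhg15 and Snhg12. The other neighbours in this order did not overlap, such as Snhg8 (lowest library 9.82 RPKM) and Snhg5 (highest library 9.25 RPKM). The joined length counts sequence of rare transcripts, so an RPKM understates a host whose short spliced form prevails. The order, with Snhg8 first, holds for this length only and could differ with another. The joined length is 853 bases in Snhg8 and 3760 in Gas5, but the shortest annotated transcript is 448 and 346 bases.

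**Figure D2:**
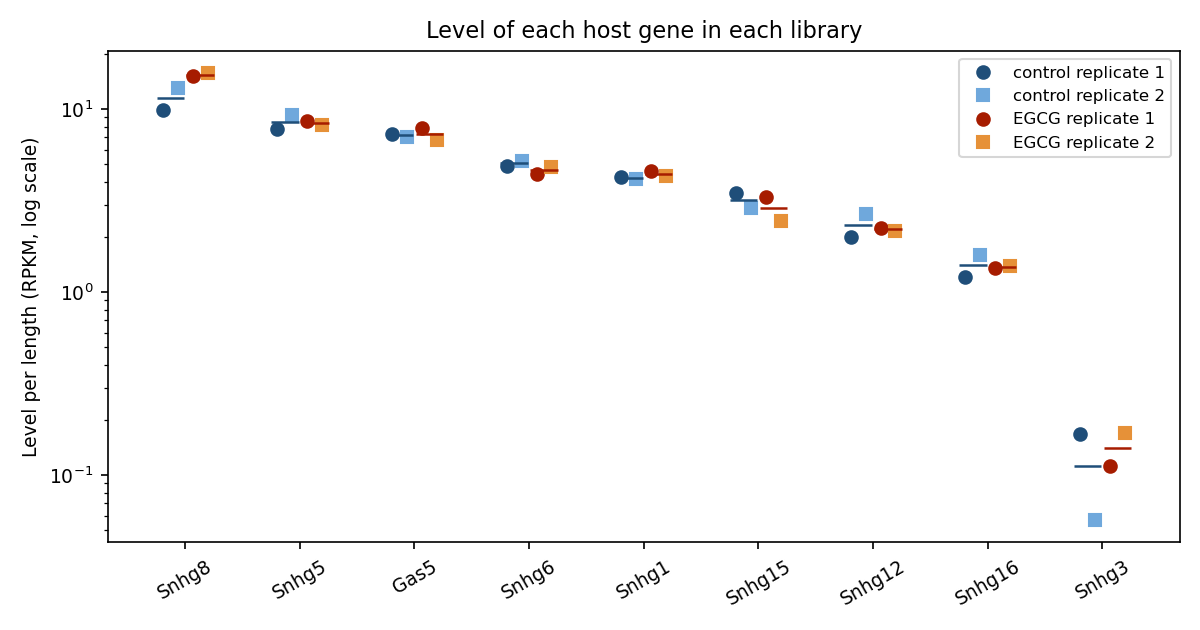
Level per length (vertical axis, RPKM on a log scale) of each host in each of the 4 libraries (points), with the group mean as a bar, in order of level. Snhg8 is highest, at 9.82 to 15.7 RPKM, and Snhg3 lies far below the next gene, Snhg16.

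None of the 8 tested hosts differed between EGCG and control at an adjusted p under 0.05 (0 of 8, edgeR's quasi-likelihood test, with p values adjusted by Benjamini-Hochberg over all tested genes). Among all genes 22 did, or 0.15%, of which 2 were higher and 20 lower with EGCG. At an unadjusted p under 0.05 in edgeR, 1 host passed (Snhg8), against 12.2% of all tested genes. DESeq2 called 0 as well, though it gave no adjusted p for 5 of the 8, Snhg8 included. The log2 fold change was positive for 3 hosts and negative for 5, and its median was -0.02, against 0.00 over all tested genes (quartiles -0.14 and 0.12). In 2 hosts (Snhg1 and Snhg8) both EGCG libraries lay above both controls, as in 21.5% of all tested genes, and in 1 (Snhg6) both lay below, as in 21.2%. The summed level of the 9 hosts was 80.5 and 86.6 CPM in the controls and 89.7 and 83.7 CPM with EGCG, and without Snhg8 it was 72.1 and 75.4 CPM against 76.8 and 70.3 CPM, so the groups overlapped in both sums.

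**Figure D3:**
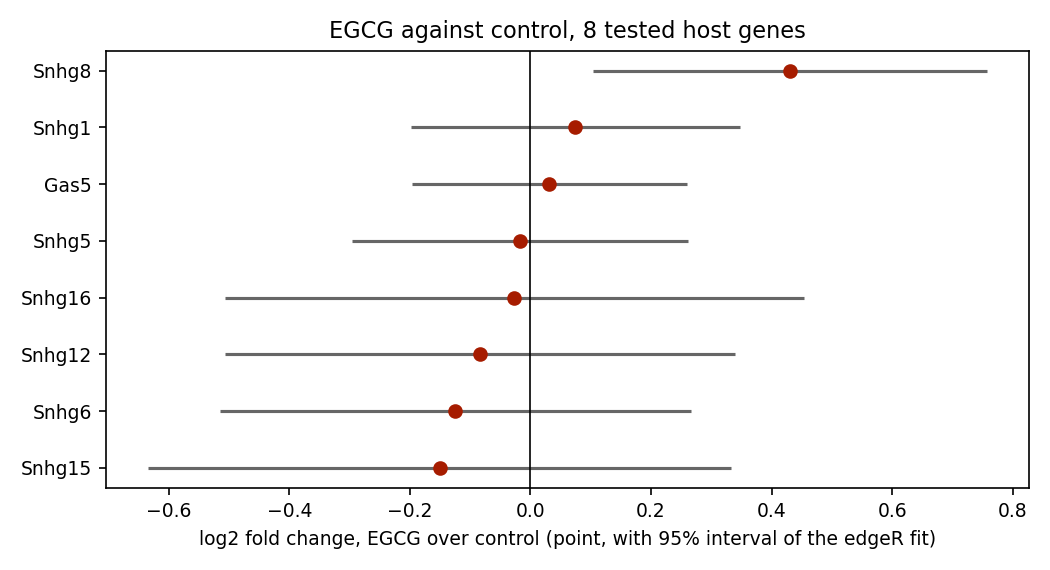
Log2 fold change of EGCG over control (horizontal axis) for the 8 tested hosts, with the 95% interval of the edgeR fit as a line. Only the interval of Snhg8, 0.10 to 0.76, lies above 0, and its adjusted p was 0.280.

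Snhg8, which carries the H/ACA snoRNA Snora24 shown above, had the largest difference of the hosts. It had 153 and 199 counts in the controls and 234 and 239 with EGCG, or 8.38 and 11.1 CPM against 12.9 and 13.4 CPM. The EGCG libraries lay close together and above both controls, and control replicate 1 was the low one. The mean was 9.76 ± 1.95 CPM (SD, n = 2) in the control group and 13.1 ± 0.336 CPM (SD, n = 2) in the EGCG group. The log2 fold change was 0.43 (SE 0.15, 95% interval 0.10 to 0.76), or 1.35-fold (1.07 to 1.69), with a p of 0.0136 in edgeR and an adjusted p of 0.280, so it did not pass the test. The control libraries themselves differed 1.33-fold and the EGCG libraries 1.04-fold. The fold change was above that of 96.2% of all tested genes. It rested on the controls: without control replicate 1 it was 0.24 and without control replicate 2 it was 0.65. In both fits the remaining control is assumed to vary like the EGCG libraries. Without EGCG replicate 1 or 2 it was 0.46 or 0.41, and under the other settings it ran from 0.35 to 0.44 with adjusted p from 0.239 to 0.713. With a correction for exonic length it was 0.35 (adjusted p = 0.429, edgeR).

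Gas5 had the most counts of the hosts, with 503 and 471 in the controls and 538 and 454 with EGCG. The groups overlapped, and EGCG replicate 1 was highest and EGCG replicate 2 lowest in CPM (29.7 and 25.4, against 27.5 and 26.4 in the controls). The mean was 27.0 ± 0.841 CPM in the control group and 27.5 ± 3.01 CPM in the EGCG group (SD, n = 2 each). The log2 fold change was 0.03 (SE 0.11, 95% interval -0.20 to 0.26), with an adjusted p of 0.939 in edgeR. It turned slightly negative (-0.0041) when libraries were scaled by size only. Zbtb37, a zinc finger gene on the other strand whose span overlaps that of Gas5 but whose exons share no base with it, had a log2 fold change of -0.03.

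Snhg1, the host of a box C/D cluster first known as U22 host gene, had 230 and 220 counts in the controls and 245 and 227 with EGCG. In CPM the controls were 12.6 and 12.3 and the EGCG libraries 13.5 and 12.7, so the groups were apart by a small margin. The log2 fold change was 0.07 (SE 0.13, interval -0.20 to 0.35, adjusted p = 0.866 in edgeR).

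Snhg5, the host of both copies of Snord50, had 244 and 286 counts in the controls and 269 and 253 with EGCG. Its EGCG libraries (14.8 and 14.2 CPM) lay between the controls (13.4 and 16.0 CPM). The log2 fold change was -0.02 (SE 0.13, interval -0.30 to 0.26, adjusted p = 0.975 in edgeR). Snhg6, the host of Snord87, had 102 and 107 counts in the controls and 92 and 99 with EGCG. Its EGCG libraries (5.07 and 5.54 CPM) were just below the controls (5.59 and 5.99 CPM), and the log2 fold change was -0.12 (SE 0.18, interval -0.52 to 0.27, adjusted p = 0.839). The last 127 exonic bases of Snhg6 are shared with Mcmdc2 on the other strand, which had 6 counts or fewer in every library.

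Snhg12, Snhg15 and Snhg16 had the fewest counts of the tested hosts and the widest intervals. Snhg12 had 88 and 114 counts in the controls and 98 and 92 with EGCG, for a log2 fold change of -0.08 (SE 0.20, interval -0.51 to 0.34). Snhg15, the host of Snora9, had 86 and 70 against 81 and 59 counts, for -0.15 (SE 0.23, interval -0.63 to 0.33). In both genes the groups overlapped. Snhg16 had 61 and 79 against 68 and 69 counts, for -0.03 (SE 0.22, interval -0.51 to 0.45), and its EGCG libraries lay between its controls. The adjusted p was 0.910, 0.843 and 0.977 in this order (edgeR). Of the exonic sequence of Snhg16, 497 bases are shared with St6galnac2 on the other strand, which had 9 counts or fewer in every library.

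Snhg3, the host of Snora73a and Snora73b, had 3 and 1 counts in the controls and 2 and 3 with EGCG, at or under the floor of 3 counts in each library, so no fold is given. Of its 986 exonic bases, 86.3% are shared with other annotated genes. Those genes include Rcc1 on the same strand (135 bases), the exchange factor of the GTPase Ran, and Gm17300 on the other strand (705 bases). Reads over shared exonic sequence of several genes may not have been assigned to any of them, and how such reads were handled is not given in the sources used here. In the other 8 hosts the shared part, hosted snoRNAs included, runs from 8.32% to 26.0%. A low count of Snhg3 therefore cannot be told apart from reads lost in this way. Rcc1 had 336 and 298 against 319 and 339 counts (log2 fold change 0.06, adjusted p = 0.882 in edgeR), and Gm17300 had 10 and 6 against 9 and 16 counts.

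Leaving out a library moved several of these values across 0, so the data give no stable direction for them. The change of direction occurred for Gas5, Snhg5, Snhg12, Snhg15 and Snhg16, with control replicate 2 left out for Snhg5, Snhg12 and Snhg16, with EGCG replicate 1 left out for Gas5, and with EGCG replicate 2 left out for Snhg15 and Snhg5. Over the 4 fits the log2 fold change ran from -0.27 to 0.13 for Snhg12, from -0.38 to 0.05 for Snhg15 and from -0.21 to 0.19 for Snhg16. Snhg1 and Snhg8 kept a positive and Snhg6 a negative value in each of these fits. The size still moved, from 0.03 to 0.12 for Snhg1 and from -0.19 to -0.06 for Snhg6. The intervals of the tested hosts other than Snhg8 all span 0, which leaves changes of the size of their bounds possible.

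**Figure D4:**
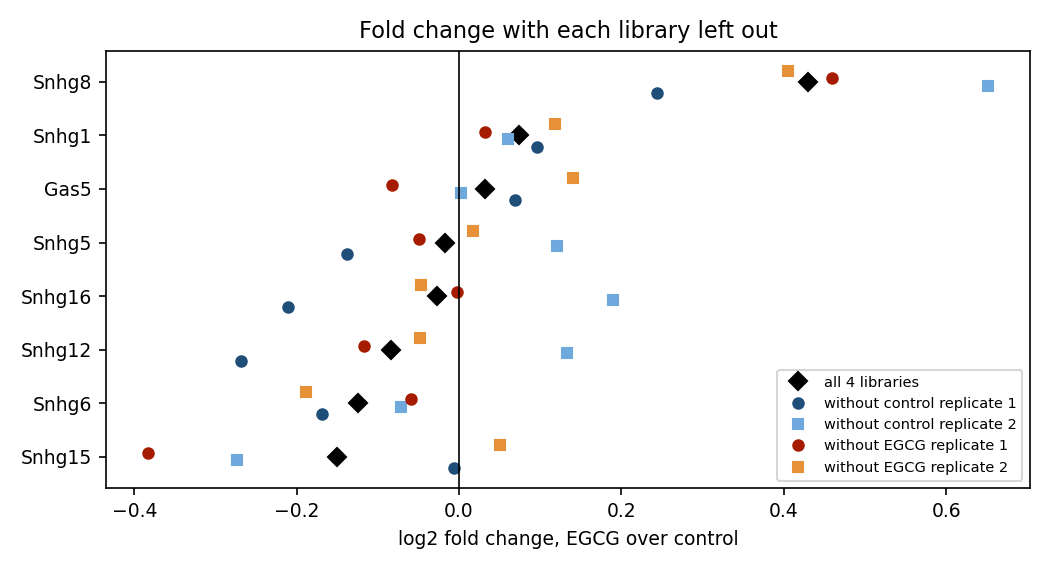
Log2 fold change of EGCG over control (horizontal axis) for the 8 tested hosts with all 4 libraries (black diamonds) and with each library left out (colored points). Snhg8 stays above 0 throughout, from 0.24 to 0.65, while Snhg12 moves from -0.27 to 0.13.

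The mean pattern of the tested hosts over the libraries was flat. Centred log2 CPM averaged -0.09 and 0.06 in control replicates 1 and 2 and 0.05 and -0.03 in EGCG replicates 1 and 2. The genes with the nearest pattern over these 4 libraries were Ppp2r5e (a regulatory subunit of protein phosphatase 2A), Nmd3 (an export adaptor of the large ribosomal subunit) and Pkp3 (plakophilin-3), at Euclidean distances of 0.0100, 0.0105 and 0.0115. With 4 libraries such closeness is a description only.

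The hosted snoRNAs themselves were almost without assigned reads. Over the 4 libraries, 1 count fell on the 33 models, on Snord87 in EGCG replicate 1, and the rest had 0 in every library. A count of 0 allows up to 3 counts in a library, provided that reads over the snoRNA could be assigned to it. Annotated host exons, joined over all transcripts, overlap 31 of the 33 models. Of the 33 models, 30 lie wholly within these exons, as the map of the hosts shows. Among the 1558 snoRNA and scaRNA genes of the table, 12 of 192 (6.25%) that overlap an exon of another gene had a count, and 232 of 1366 (17.0%) that overlap none. These counts were not read as snoRNA abundance, and the part of library preparation or of unassigned reads in them was not tested.

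Of 13 further noncoding genes named as snoRNA hosts, 5 had enough counts for a test, and the others had at most 17 counts in a library. None passed at an adjusted p under 0.05 (edgeR) and the median log2 fold change was 0.08. Snhg4, inside which this annotation places no snoRNA, had 23 and 32 counts in the controls and 41 and 48 with EGCG. Both EGCG libraries were above both controls, with a log2 fold change of 0.70 (SE 0.30, adjusted p = 0.378), and Snhg4 was the gene of the 5 that passed at an unadjusted p under 0.05, as 12.2% of all tested genes did (21.5% were apart and higher). Snhg17 was at -0.17, Snhg20 at -0.15 and Epb41l4aos at 0.20, and over the alternatives they ran from -0.40 to 0.13, from -0.29 to 0.0068 and from -0.0057 to 0.45, so their direction turned.

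Protein-coding genes that carry snoRNAs showed both directions, and none of them passed at an adjusted p under 0.05 (edgeR). Of the 16 outside the ribosomal proteins, 2 were higher and 2 lower at an unadjusted p under 0.05, against 12.2% of all tested genes in either direction, with a median of 0.06. Tpt1, which encodes the translationally controlled tumor protein, had 2674 and 3075 counts in the controls and 3841 and 3736 with EGCG. Its EGCG libraries were above both controls, with a log2 fold change of 0.40 (SE 0.08, adjusted p = 0.0754). With DESeq2 its adjusted p was 0.0164, with edgeR's robust fit 0.0379 and with scaling by library size only 0.0250. Without control replicate 2, EGCG replicate 1 or EGCG replicate 2 it was 0.000721, 0.0188 or 0.00706, and without control replicate 1 it was 0.260 with a log2 fold change of 0.30 (edgeR). In each of these fits 1 group has a single library, assumed to vary like the other group, and the calls over all genes rose from 22 to between 77 and 354. In the other settings it ran from 0.0556 with the replicate block to 0.593 with no filter on low counts. The translation elongation factor gene Eef1b2 was at 0.20 (adjusted p = 0.325), the helicase gene Eif4a1 at -0.21 (adjusted p = 0.325) and Nop56 at -0.25 (adjusted p = 0.336).

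Of the 19 ribosomal protein hosts, 4 were higher and 1 lower at an unadjusted p under 0.05, and the median was 0.12. Of all tested genes, 12.2% passed that threshold in either direction. The log2 fold change was positive for 16 of the 19, against 50.6% of all tested genes. The 50.6% is over genes of all lengths, and the fold change fell with exonic length (Spearman correlation of -0.29 over tested genes). The part of length in the 16 was not tested. Rpl13a, the host of several box C/D snoRNAs, had 135 and 128 counts in the controls and 191 and 204 with EGCG (log2 fold change 0.59, SE 0.15, adjusted p = 0.133 in edgeR). Rps3 was at 0.29 (SE 0.08, adjusted p = 0.188), and without control replicate 2 it was at 0.40 with an adjusted p of 0.0131, in a fit where the lone control is assumed to vary like the EGCG libraries and 354 genes in all were called. Rpl3 was at -0.30 (adjusted p = 0.372) and Rpl21 at -0.35 (adjusted p = 0.624). With the length correction Rpl13a was at 0.55, Rps3 at 0.30, Rpl3 at -0.32 and Rpl21 at -0.36. Genes of these families have processed pseudogenes, between which the counting could split reads.

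The proteins that bind and build snoRNPs showed no call. Of the 4 box C/D proteins, Nop56 was lower at an unadjusted p under 0.05, a threshold that 12.2% of all tested genes passed, with 553 and 550 counts in the controls and 479 and 447 with EGCG. Nop58 was at -0.12 (-0.22 to -0.01 over the alternatives) and Snu13 at 0.07 (0.02 to 0.13). Of the 4 box H/ACA proteins, none passed at an unadjusted p under 0.05. Gar1 was at -0.29 (adjusted p = 0.50 in edgeR, -0.41 to -0.16 over the alternatives). Nop10 was at 0.14 (-0.04 to 0.31 over the alternatives) and Nhp2 at 0.07 (0.01 to 0.14). The medians were -0.08 and 0.07. The 10 assembly factors had a median of -0.05, from -0.27 for Naf1 to 0.14 for Pih1d1, and none of them passed at an unadjusted p under 0.05 either.

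Of nonsense-mediated decay, known to degrade several host RNAs, only the RNA levels of 14 factor genes were compared. None passed at an adjusted p under 0.05 (edgeR), and 3 were lower at an unadjusted p under 0.05, against 12.2% of all tested genes in either direction. The median was -0.05. Smg1, the kinase of UPF1, had 3937 and 3790 counts in the controls and 3250 and 3078 with EGCG, for a log2 fold change of -0.28 (SE 0.07, adjusted p = 0.138). With the length correction it was -0.09, and with scaling by library size only it was -0.32 (adjusted p = 0.0438). Smg5 was at -0.25 (adjusted p = 0.267), Magoh at 0.16 and Rbm8a at 0.09. Over all tested genes the fold change fell with exonic length (Spearman correlation of -0.29 across 14666 genes, genes not being independent replicates).

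The glucocorticoid receptor gene and its targets, taken for the known binding of Gas5 RNA to that receptor, had a median of -0.02 over 8 genes, and 0 passed at either threshold in edgeR. Tsc22d3, a classic target also known as Gilz, was at 0.16 (SE 0.08, adjusted p = 0.453) and Klf9 at -0.23 (SE 0.13, adjusted p = 0.536). Sgk1 was at -0.06 and Zfp36 at 0.06, and both turned direction over the alternatives (-0.14 to 0.03 and -0.08 to 0.19).

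**Figure D5:**
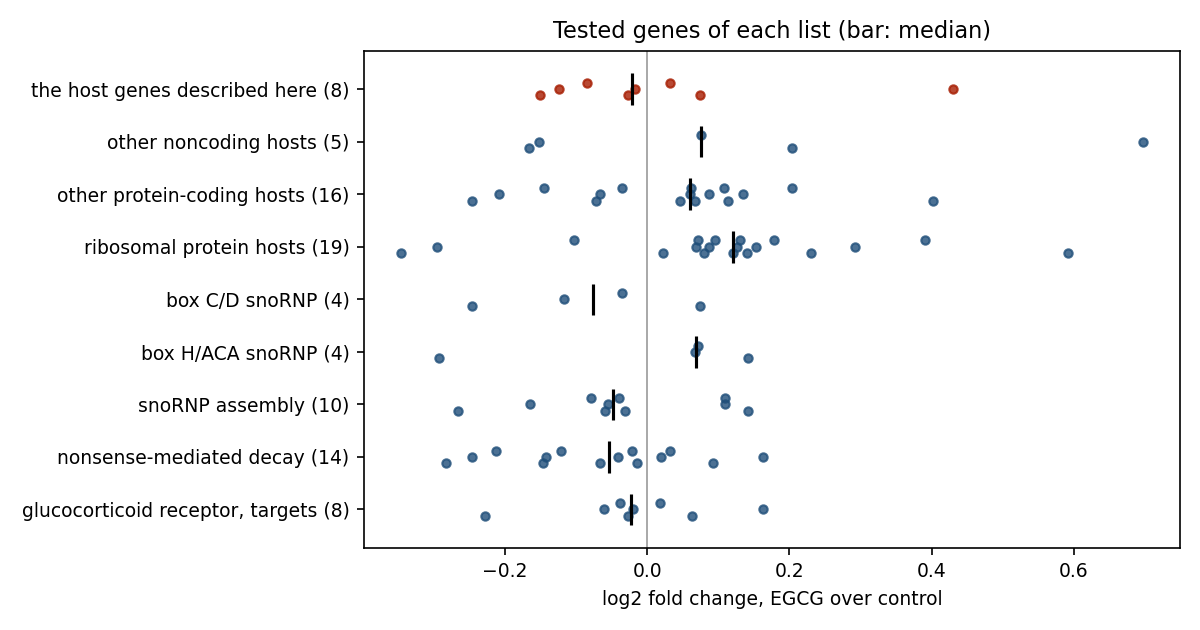
Log2 fold change of EGCG over control (horizontal axis) for the tested genes of each list (points, with the number tested in brackets) and the median of each list (black bar). The hosts described here have a median of -0.02, and list medians run from -0.08 to 0.12.

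Of single tested genes, 21.5% were apart and higher and 21.2% apart and lower, shares that were not worked out for sums of genes. Summed markers of several other cell types, like the monocytic markers above, did not overlap between the groups. Those of splenic macrophages (5 of 5 detected) summed to 347 and 354 CPM in the controls and 279 and 289 CPM with EGCG. Those of endothelial cells (4 of 4) summed to 113 and 125 CPM against 93.9 and 98.0 CPM. Of these, Cdh5 was at 6.90 and 6.38 CPM in the controls and Kdr at 6.08 and 7.27 CPM. Emcn had 1 and 2 counts in the controls and 5 and 0 with EGCG, too few for a test. Most of the sum was thus Pecam1. Megakaryocyte markers (4 of 4) summed to 36.3 and 39.3 CPM against 32.4 and 32.0 CPM. Most of that was Itga2b, at 30.4 and 29.3 CPM against 26.1 and 23.1 CPM. Ppbp overlapped, at 1.15 and 3.86 CPM against 2.32 and 2.30 CPM. The summed T and NK cell markers (5 of 5) were higher with EGCG, at 94.5 and 97.0 CPM against 81.5 and 92.6 CPM. Most of that sum was Cd3d, at 87.7 and 90.2 CPM with EGCG against 75.2 and 86.0 CPM. The NK cell genes Ncr1 and Klrb1c were too low for a test. Ncr1 had 7 and 4 counts in the controls and 4 and 3 with EGCG. Klrb1c had 5 and 5 in the controls and 6 and 1 with EGCG. The groups overlapped for B cell markers (4 of 4, 303 to 349 CPM) and erythroid markers (5 of 5, 153 to 204 CPM). On the log2 scale the endothelial genes Cdh5 and Kdr were at -0.87 and -0.75 (adjusted p = 0.103 and 0.223 in edgeR). Pecam1 was at -0.26. The macrophage genes Cd5l and Adgre1 were at -0.59 and -0.27 (adjusted p = 0.107 and 0.228 in edgeR). All 3 tested endothelial genes and all 5 macrophage genes were negative, with medians of -0.75 and -0.27. Cycling-cell genes (4 of 4) summed to 477 and 487 CPM in the controls and 388 and 374 CPM with EGCG, and Mki67, a marker of proliferating cells at 293 and 279 CPM of those sums against 209 and 201 CPM, fell by 0.48 on the log2 scale (SE 0.07, adjusted p = 0.0245 in edgeR). The value was -0.39 with the length correction (adjusted p = 0.0584, and 0.0696 with the replicate block added) and -0.48 with no filter on low counts (adjusted p = 0.525), where the call was lost. Of the other cycling-cell genes, Top2a was at -0.21 (adjusted p = 0.318) and Cdk1 at 0.03 (-0.05 to 0.13 over the alternatives). No marker of these lists was at 0 in every library. The part of these cells in the values of Snhg8 and the other hosts was not tested.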

How the data were processed

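RNA-seq of 4 samples was used, grouped by their labels. The authors aligned reads to GRCm38 with STAR 2.6.0c, counted them per gene with featureCounts 1.6.2 on Ensembl release 91, and deposited the whole-number counts, not normalized and without regard to strand. Overlapping genes on opposite strands are therefore uncertain.

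From the deposited counts, genes were filtered with edgeR's filterByExpr (minimum count of 10), scaled by TMM and tested with edgeR 4.0.16 (quasi-likelihood test, Benjamini-Hochberg adjustment over 14682 genes, threshold 0.05). CPM are the values of the cpm function of edgeR after TMM scaling, and RPKM divide them by exonic kilobases in GENCODE M21. The standard error is the log2 fold change divided by the square root of F. With 2 libraries a group, the smallest two-sided exact permutation p is 0.333. Members and lists were chosen with earlier results of these data known. Named are all members, of each list up to 2 genes per direction with the smallest p and at least 10 counts in every library. Genes overlapping a member, the 3 nearest in pattern, Pecam1 and the untested markers are named as well. Alternatives included other filters, scalings, fits (DESeq2 1.42.0), a length correction (loess, span 0.4), a replicate block and leaving out each library. Other tools were R 4.3.3, limma 3.58.1, Python 3.11.15, NumPy 2.4.6, pandas 2.3.3, SciPy 1.17.1 and matplotlib 3.10.9.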

Additional observations from a re-analysis of the deposited data

How the results depend on the processing

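Of the 88 values of the tested hosts under the 11 settings that kept all libraries, 87 kept their direction with no call, and Gas5 turned to -0.0041 with library size only. With 1 library left out, Gas5 ran from -0.082 to 0.14, Snhg5 from -0.14 to 0.12, Snhg12 from -0.27 to 0.13, Snhg15 from -0.38 to 0.051 and Snhg16 from -0.21 to 0.19. The hosts called ran from 0 to 1, the 1 being Snhg8 without control replicate 2. The 22 calls over all genes became 0 with no filter, 151 with library size only, 11 with upper-quartile scaling, 63 with the robust fit, 64 with DESeq2, 8 with the length correction and 77 to 354 with 1 library left out. Calls in the 8 gene lists other than the cell markers, 0 in the main result, were 2 with library size only (Tpt1 and Smg1), 1 each with the robust fit and DESeq2 (Tpt1), and 0 to 2 with 1 library left out (Tpt1, and Rps3 without control replicate 2). The cause was not tested. A replicate block gave 30 calls over all genes, and 7 together with the length correction. It called 0 of the hosts, with Snhg8 at 0.44 (adjusted p = 0.239, edgeR). The replicate numbers are shared by number only: the deviations of same-numbered libraries correlated at 0.0336 across 14682 genes. Depth limits the hosts with few counts, since counting error alone gives a standard error of 0.17 for Snhg15 and Snhg16 against 0.07 for Gas5.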
